A study of Rattus norvegicus with 13 samples.

Results

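The condensins and type II topoisomerases compared here are the protein machines that fold and disentangle chromosomal DNA, and their genes were followed in mammary epithelial cells of rats inside the age span in which the gland is most prone to cancer (the window of susceptibility, WOS) and after it. The members were the rows of the deposited expression table whose gene symbol was that of a condensin subunit or a type II topoisomerase. This gave 10 of 14790 genes, and each member had exactly 1 row. They were *Smc2* and *Smc4*, which both condensins share, *Ncapd2*, *Ncapg* and *Ncaph* of condensin I, *Ncapd3*, *Ncapg2* and *Ncaph2* of condensin II, and *Top2a* and *Top2b*.

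Condensins are ring-shaped ATPases that extrude loops of DNA and compact chromosomes for cell division. Condensin II is in the nucleus throughout the cell cycle, while condensin I mostly reaches the chromosomes once the nuclear envelope has broken down. Type II topoisomerases pass a DNA duplex through a transient break in another: TOP2A is made mainly in dividing cells, and TOP2B is also made in cells that do not divide.

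RNA-seq was done on Wistar-Furth rats of 6 weeks of age (within WOS, n = 6) and 10 weeks of age (outside WOS, n = 7). There was 1 library per rat and no treatment was named. The paper also describes these ages as entering and exiting WOS. Abdominal and inguinal glands were digested with collagenase and fragments of the ducts were kept on a filter, which enriches epithelium but leaves some cells of the stroma and of the immune system. Values are the authors' gene counts after scaling of each library and rounding, here called normalized counts. They summed to between 13261906 and 15659533 per rat at 6 weeks and between 13766735 and 15402814 at 10 weeks.

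Some libraries stood apart in depth. Counts that had not been scaled up would hold every whole number from 1 to 30 among so many genes, yet 16 of these numbers were absent in rat 78 (10 weeks) and 15 in rat 80 (6 weeks), so that a read was worth an estimated 2.14 and 2 normalized counts there. Low values are therefore less precise in these rats. Next came rat 75 (6 weeks) with 10 numbers absent, rat 74 (10 weeks) with 8 and rat 81 (10 weeks) with 7. Rats 72 and 87 (10 weeks) followed with 4 each. Numbers were thus absent in most rats of 10 weeks, but only in rats 75 and 80 of 6 weeks, so depth was not balanced between the ages. In 6 rats every number was present.

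Of the 10 members, 6 were higher within WOS at an adjusted p under 0.05 in limma, against 8.71% of all genes (1288 of 14790). None was higher outside WOS in limma, where 7.39% of all genes were, and at an unadjusted p under 0.05 the count was also 0, against 2186 of all 14790 genes. In 3 of the 10, *Ncapg*, *Ncapg2* and *Top2a*, every rat of 6 weeks was above every rat of 10 weeks, which held for 3.29% of all genes. The median log2 fold change (6 weeks over 10 weeks) was 0.87 over the members and 0.028 over all genes. By role, 1 of 2 shared subunits, 2 of 3 condensin I subunits, 2 of 3 condensin II subunits and 1 of 2 topoisomerases were higher within WOS. In bulk samples, more cells that express a gene and more RNA per cell cannot be told apart.

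**Figure D1:**
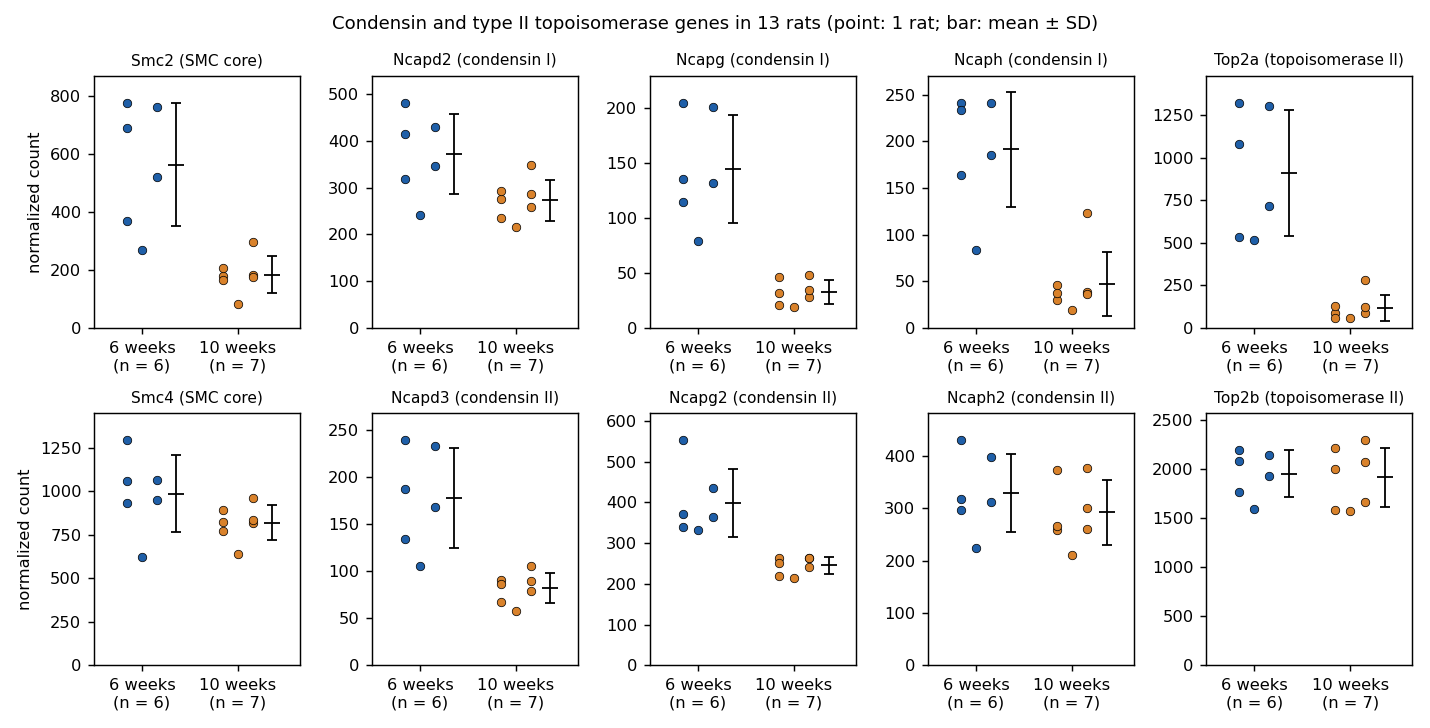
Normalized counts of the 10 genes in each rat, by age, with 1 point per rat and bars for the mean ± SD (6 weeks, n = 6; 10 weeks, n = 7). The ages do not overlap for Ncapg, Ncapg2 and Top2a, while the Top2b points of both ages lie between 1575 and 2291.

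The shared SMC subunits are the ATPases that form the arms of the ring. *Smc2* (ENSRNOG00000022325) had normalized counts from 267 to 775 at 6 weeks (median 603.5) and from 81 to 295 at 10 weeks (median 178). Rats 84, 86 and 70 were the highest, and the ages overlapped only through rat 80 of 6 weeks, at 267, and rat 81 of 10 weeks, at 295. The means were 563 ± 213 (SD, n = 6) and 184 ± 63.2 (SD, n = 7), a log2 fold change of 1.59 (SE 0.31, limma adjusted p 0.00485), or 3.01-fold with a 95% interval of 1.90 to 4.77. Its partner behaved differently. *Smc4* (ENSRNOG00000010274) had 620 to 1292 at 6 weeks (median 1003) and 642 to 961 at 10 weeks (median 825). The ranges overlapped for most rats, with 3 of 6 young rats above all older ones and 1, rat 80, below all of them. The log2 fold change of 0.24 (95% interval −0.094 to 0.58, limma adjusted p 0.307) did not pass the test. Single rats moved this value, to 0.37 without rat 80 (limma adjusted p 0.0626) and to 0.16 without rat 86 (limma adjusted p 0.497).

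In condensin I, NCAPH is the kleisin that closes the ring between the SMC heads, and NCAPG and NCAPD2 are the HEAT-repeat subunits bound to it. *Ncapg* (ENSRNOG00000038572) had normalized counts from 79 to 205 at 6 weeks (median 134) and from 19 to 48 at 10 weeks (median 32). No older rat came near the young ones, of which rats 86 and 84 were the highest and the shallow library of rat 80 the lowest. The means were 145 ± 49.5 (SD, n = 6) and 32.7 ± 11.3 (SD, n = 7), with a log2 fold change of 2.11 (SE 0.27, limma adjusted p 0.00033), or 4.32-fold (95% interval 2.90 to 6.43). *Ncaph* (ENSRNOG00000012051) was higher within WOS by a similar factor. It had 84 to 241 at 6 weeks (median 209) and 19 to 123 at 10 weeks (median 37). Of the young rats, 5 of 6 were above all older ones, and the overlap came from rat 80 at 84 and rat 81 at 123, since the other older rats had 46 or less. The means were 191 ± 61.6 (SD, n = 6) and 47.0 ± 34.5 (SD, n = 7), with a log2 fold change of 2.14 (SE 0.37, limma adjusted p 0.00242), or 4.42-fold (95% interval 2.54 to 7.66).

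*Ncapd2* (ENSRNOG00000055300), the remaining condensin I subunit, differed less between ages. Its values ran from 242 to 481 at 6 weeks (median 380.5) and from 216 to 348 at 10 weeks (median 275). The upper young rats, 84, 75 and 70, were above every older rat, and the other 3 lay within the older range. The means were 372.0 ± 86.3 (SD, n = 6) and 273 ± 43.2 (SD, n = 7), and the log2 fold change of 0.43 (SE 0.16, limma adjusted p 0.0957) did not pass the test, although its unadjusted 95% interval of 0.071 to 0.78 was above 0. Rat 80 decided this call: without it the log2 fold change was 0.54 with a limma adjusted p of 0.0269. Over all alternatives the adjusted p of *Ncapd2* ranged from 0.00789 to 0.916.

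The condensin II subunits hold the same places in the ring, with NCAPH2 as the kleisin and NCAPD3 and NCAPG2 as the HEAT-repeat subunits. *Ncapd3* (ENSRNOG00000008932) had normalized counts from 106 to 239 at 6 weeks (median 177.5) and from 58 to 106 at 10 weeks (median 86). The ages met at a single value, 106, in rat 75 of 6 weeks and rat 81 of 10 weeks, and 5 of 6 young rats were above every older rat. The means were 178 ± 53.0 (SD, n = 6) and 82.4 ± 16.1 (SD, n = 7), with a log2 fold change of 1.07 (SE 0.20, limma adjusted p 0.00445), or 2.09-fold (95% interval 1.55 to 2.84). *Ncapg2* (ENSRNOG00000004968) had the tightest values of all members outside WOS, with a coefficient of variation of 8.61%. It had 332 to 552 at 6 weeks (median 367.5) and 215 to 264 at 10 weeks (median 251). All 6 young rats were above all 7 older rats, with rat 86 well above the rest. The means were 399 ± 83.4 (SD, n = 6) and 245 ± 21.1 (SD, n = 7), with a log2 fold change of 0.68 (SE 0.13, limma adjusted p 0.00404), or 1.60-fold (95% interval 1.32 to 1.94).

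*Ncaph2* (ENSRNOG00000009598) had 224 to 429 at 6 weeks (median 314) and 211 to 376 at 10 weeks (median 266). The ages were intermixed, and rat 86, the highest young rat for most members, was the lowest young rat here. The log2 fold change was 0.17 (95% interval −0.21 to 0.54, limma adjusted p 0.545). *Ncaph2* did not pass the test. With a rat left out its log2 fold change ran from 0.084 (without rat 70) to 0.27 (without rat 86), and it did not pass either. The interval leaves room for a level up to 1.46-fold higher within WOS.

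*Top2a* (ENSRNOG00000053047) had the largest fold change of the members. Its normalized counts ran from 517 to 1322 at 6 weeks (median 896.5) and from 57 to 282 at 10 weeks (median 87). Rats 86, 84 and 70 were the highest and rat 75 the lowest of the young rats, and all 6 were above the highest older rat, 81. The means were 912 ± 370 (SD, n = 6) and 117 ± 77.8 (SD, n = 7), with a log2 fold change of 3.05 (SE 0.37, limma adjusted p 0.000279), or 8.30-fold (95% interval 4.77 to 14.5). *Top2b* (ENSRNOG00000048795) had 1589 to 2195 at 6 weeks (median 2005.5) and 1575 to 2291 at 10 weeks (median 1995). The highest and the lowest rat of the whole series for *Top2b* were both older rats, so that the young range lay inside the older one. The means were 1951 ± 237 (SD, n = 6) and 1914 ± 304 (SD, n = 7), and the log2 fold change was 0.034 (95% interval −0.24 to 0.31, limma adjusted p 0.879). The upper limit of this interval was a 1.24-fold change in favour of the young rats. With library size scaling, and also without rat 75, the upper limit was 0.37 in log2. In the smaller set of rats described below it was 0.45.

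**Figure D2:**
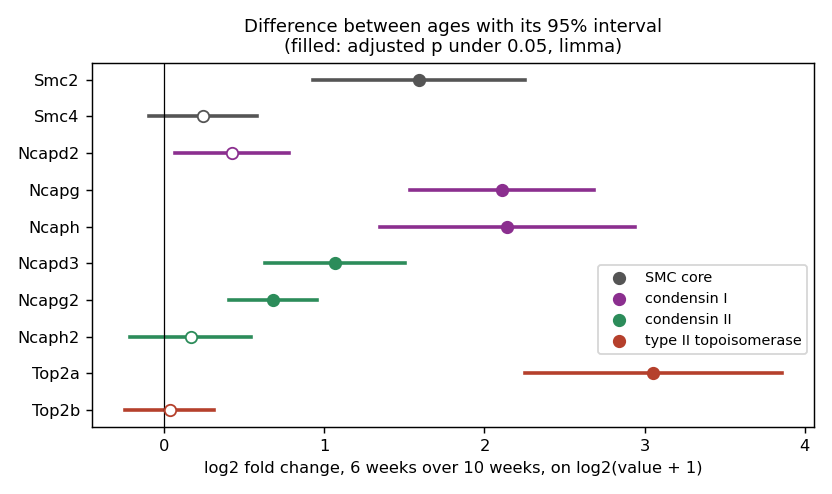
Log2 fold change of each gene (6 weeks over 10 weeks, on log2 of the normalized count + 1) with its 95% interval from limma, coloured by role, with filled points for an adjusted p under 0.05. The values run from 0.034 for Top2b to 3.05 for Top2a, and the intervals of Smc4, Ncaph2 and Top2b include 0.

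Condensin I was then set beside condensin II by the ratio of each condensin I subunit to its condensin II counterpart in the same library, in which the scaling of the library drops out. The ratio compares changes, not levels, since the counts are not per length. Each difference between ages was tested with an exact two-sided permutation test over rats (smallest possible p 0.00117), adjusted over 4 ratios.

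*Ncapg* over *Ncapg2* ran from 0.240 to 0.464 at 6 weeks (median 0.366) and from 0.0755 to 0.194 at 10 weeks (median 0.134). The ages did not overlap, with rat 80 the lowest young rat and rat 81 the highest older one. On the log2 scale the means were −1.51 ± 0.31 (SD, n = 6) and −2.94 ± 0.48 (SD, n = 7), a difference of 1.43, or 2.69-fold (exact p 0.00117, adjusted 0.00233). *Ncaph* over *Ncaph2* ran from 0.267 to 1.04 at 6 weeks (median 0.579) and from 0.0536 to 0.479 at 10 weeks (median 0.126). Of the young rats, 5 of 6 were above every older rat, and rats 80 and 81 again made the overlap. The log2 means were −0.83 ± 0.63 (SD, n = 6) and −2.81 ± 0.94 (SD, n = 7), a difference of 1.98, or 3.93-fold (exact p 0.00233, adjusted 0.00311). For these pairs, then, the condensin I gene had a larger fold change (6 weeks over 10 weeks) than its counterpart.

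The *Ncapd2* and *Ncapd3* pair went the other way. *Ncapd2* over *Ncapd3* ran from 1.45 to 4.02 at 6 weeks (median 1.98) and from 2.38 to 4.68 at 10 weeks (median 3.12). Of the young rats, 5 of 6 were below every older rat, and rat 75 alone was among the older values. The log2 means were 1.08 ± 0.50 (SD, n = 6) and 1.72 ± 0.34 (SD, n = 7), a difference of −0.64 (exact p 0.0245, adjusted 0.0245), so that the condensin II gene had the larger change. This p was 0.0530 in the exact test without rat 86 (difference −0.53) and 0.0823 without the low-depth rats 78 and 80 (difference −0.51). Over all alternatives with a test it ranged from 0.00253 to 0.0823 by exact permutation. The condensin I and condensin II genes thus did not differ in a single direction over the 3 pairs.

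*Top2a* over *Top2b* ran from 0.305 to 0.608 at 6 weeks (median 0.451) and from 0.0291 to 0.180 at 10 weeks (median 0.0425). There was no overlap, and rat 81 was the closest older rat. The log2 means were −1.19 ± 0.48 (SD, n = 6) and −4.21 ± 0.89 (SD, n = 7), a difference of 3.02, or 8.11-fold (exact p 0.00117, adjusted 0.00233). The ratio of *Smc2* to *Smc4* was chosen after the values were seen. It ran from 0.395 to 0.728 at 6 weeks and from 0.0982 to 0.358 at 10 weeks, with no overlap between ages. Its log2 means were −0.88 ± 0.34 (SD, n = 6) and −2.23 ± 0.60 (SD, n = 7), a difference of 1.35, or 2.55-fold, given as a description with no test because of how it was chosen.

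**Figure D3:**
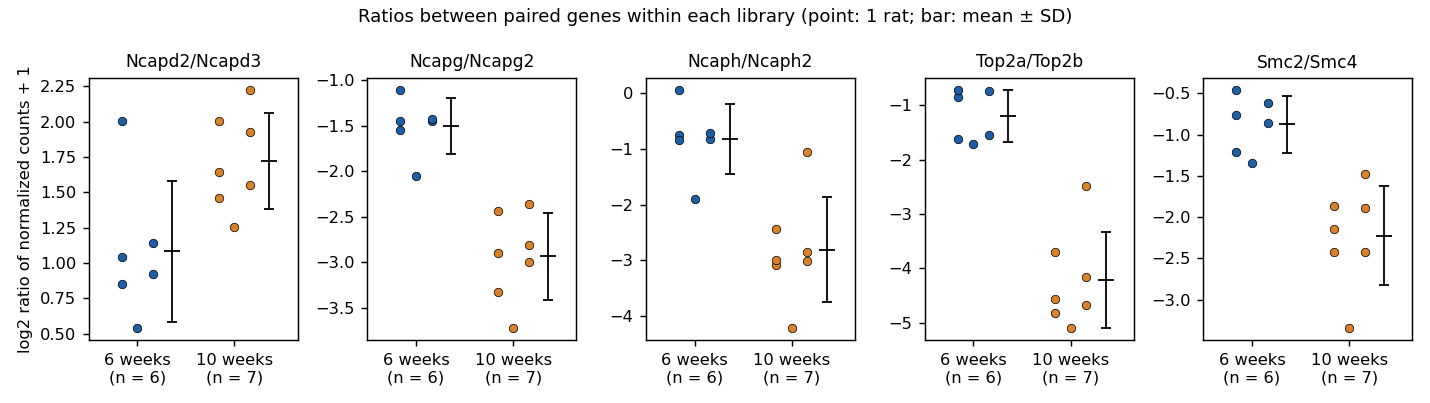
Log2 ratio of paired genes within each library (normalized counts + 1), with 1 point per rat and bars for the mean ± SD (6 weeks, n = 6; 10 weeks, n = 7). The ages do not overlap for Ncapg/Ncapg2, Top2a/Top2b and Smc2/Smc4, and for Ncapd2/Ncapd3 the young rats are lower except rat 75.

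The same rats were high or low for many members. Within WOS, rat 84 was among the 2 highest rats for 10 of 10 members and rat 86 was the highest for 6, while rat 80 was the lowest for 6 and rat 75 for 3. Outside WOS, rat 81 was the highest for 4 members, *Smc2*, *Ncaph*, *Ncapd3* and *Top2a*, and rat 74 was the highest for 3. As a description within each age, the Pearson r of log2 values with *Top2a* was 0.96 over the 6 young rats and 0.88 over the 7 older rats for *Ncapd3*, and 0.95 and 0.80 for *Smc2*. For *Ncaph* it was 0.80 and 0.90. For *Ncapg2* it was 0.83 and 0.0027, and for *Top2b* 0.84 and −0.33. For *Smc4* it was 0.79 and −0.32, and for *Ncapg* 0.89 and 0.46. For *Ncapd2* it was 0.48 and 0.21, and for *Ncaph2* 0.11 and −0.12. Differences in r between the ages were not tested. The r values share the rats and their depth.

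Among 10734 genes with a mean of at least 50, those with a pattern most like *Top2a* over the 13 rats were *Ect2* (Pearson r 0.993), *Spag5* (0.988; the row ENSRNOG00000011777, the only one of this symbol with a mean of at least 50), *Stil* (0.987), *Arhgap11a* (0.987) and *Mki67* (0.986). *Ect2*, a cytokinesis factor, averaged 254 normalized counts at 6 weeks and 30.1 at 10 weeks. *Mki67*, the proliferation marker that coats mitotic chromosomes, averaged 1947 and 368. The genes most like *Top2b* were *Vps35* (Pearson r 0.970), *Rab10* (0.963), *Rars* (0.959), *Cdc42* (0.957) and *Senp7* (0.955). None of these 5 passed the test between ages in limma (unadjusted p from 0.541 to 0.815), with log2 fold changes from 0.032 for *Cdc42* to 0.085 for *Rars*. Since they were picked for likeness to *Top2b*, which had no call either, this follows from the choice and is no separate result. The patterns most like *Top2a* and *Top2b* were thus those of different genes, and for *Top2a* the r over 13 rats includes the difference between ages.

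Genes that act with condensins and topoisomerases on mitotic chromosomes, or that regulate them, were mostly higher within WOS. Of 22 measured genes (of 23 listed), 14 were higher within WOS, 1 was higher outside and 7 did not pass, against 8.71% of all genes higher within WOS and 7.39% higher outside. The median log2 fold change was 1.36, against 0.028 over all genes. *Birc5*, of the chromosomal passenger complex, averaged 43.2 ± 20.7 (SD, n = 6) and 3.71 ± 3.15 (SD, n = 7), a log2 fold change of 3.37 (limma adjusted p 0.000653). *Ccnb1*, the mitotic cyclin B1, averaged 110.5 and 11.9, a log2 fold change of 3.14 (SE 0.36, limma adjusted p 0.000194). *Kif4a*, a chromokinesin that works with condensin I on the chromosome axis, averaged 172 ± 58.5 and 20.9 ± 12.4, a log2 fold change of 3.13 (limma adjusted p 0.000468). *Nusap1*, which bundles spindle microtubules, rose by a log2 fold change of 3.08 (limma adjusted p 0.000408). *Akap8*, a chromatin anchor of condensin, was the gene that was higher outside WOS, at 914 ± 132 and 1161 ± 113, a log2 fold change of −0.35 (limma adjusted p 0.0494). *Mcph1*, which restrains condensin II in interphase, averaged 88.5 ± 23.3 and 39.4 ± 10.7, a log2 fold change of 1.15 (limma adjusted p 0.00255). *Akap8* and *Mcph1* belong to the list, and were picked for naming after their values were seen. The most abundant gene of the list that did not pass was *Csnk2a1*, a casein kinase 2 subunit (706 and 787, log2 fold change −0.17, limma adjusted p 0.281).

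The other SMC complexes are cohesin and SMC5/6, listed here with their loaders and regulators. The list also holds *Smchd1*, which is counted with them. Of 19 measured genes (of 25 listed), 1 was higher within WOS and 0 were higher outside in limma, against 8.71% and 7.39% of all genes, with a median log2 fold change of −0.11. At an unadjusted p under 0.05 the counts were 2 and 3 of 19, against 2481 and 2186 of all 14790 genes. A count of 1 in 19 is near the share of all genes. The gene higher within WOS was *Esco2*, the acetyltransferase that establishes cohesion in S phase. It averaged 82.5 ± 39.9 (SD, n = 6) and 20.9 ± 9.55 (SD, n = 7), a log2 fold change of 1.89 (limma adjusted p 0.0054). *Nipbl*, the cohesin loader and the most abundant gene of the list, averaged 4500 ± 605 and 5505 ± 772, a log2 fold change of −0.29 that did not pass (limma adjusted p 0.126). The difference between this list and the condensins was not tested.

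Among the other topoisomerases and the repair factors for topoisomerase lesions, 1 of 15 measured genes (of 17 listed) was higher within WOS and 1 was higher outside, which is near the 8.71% and 7.39% of all genes, with a median log2 fold change of −0.026. *Top1*, the type I enzyme that relaxes supercoils during transcription, averaged 5188 ± 833 (SD, n = 6) and 7922 ± 1004 (SD, n = 7), a log2 fold change of −0.62 (limma adjusted p 0.00665). *Blm*, the helicase that dissolves recombination intermediates together with topoisomerase III alpha, averaged 133.5 ± 26.0 and 51.3 ± 15.3, a log2 fold change of 1.39 (limma adjusted p 0.0011). *Top1* was thus higher outside WOS and *Top2a* within WOS, with no call for *Top2b*. *Topors*, a ligase that binds topoisomerase I, was the most abundant of the list that did not pass (1171 and 1196, log2 fold change −0.026, limma adjusted p 0.898).

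Some markers of the cells in the preparation also differed between ages. The counts of every marker list stand against 8.71% of all genes higher within WOS and 7.39% higher outside. At an unadjusted p under 0.05 these are 2481 and 2186 of 14790. The medians of the lists stand against 0.028 over all genes. All 8 luminal and 7 basal epithelial markers were measured and none was at 0 in every rat. Of the luminal markers, *Epcam* (log2 fold change −0.39, limma adjusted p 0.0454) and *Cdh1* (−0.47, limma adjusted p 0.0165) were higher outside WOS. *Cdh1* was also the most abundant, and the list summed to 37189 to 53903 per rat at 6 weeks and 50524 to 65292 at 10 weeks. The calls were thus 2 of 8 luminal markers, and their median log2 fold change was −0.13, with 1 of 8 above 0. Of the 7 basal markers, 1, *Cnn1*, was higher outside WOS (log2 fold change −0.46, limma adjusted p 0.0357). The basal markers went both ways, with a median log2 fold change of 0.15. *Krt5*, *Krt14*, *Krt17* and *Tp63* lay between 0.15 and 0.32, and *Acta2* (−0.44) and *Myh11* (−0.34) were below 0. None of these 6, all but *Myh11* named after their values were seen, passed the test. *Myh11* was the most abundant, and this list summed to 18998 to 29977 and 26845 to 36877.

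Of 5 measured fibroblast markers (of 6 listed), 3 were higher within WOS, against 8.71% of all genes: *Col1a1* (log2 fold change 1.92, limma adjusted p 0.00434), *Col3a1* (2.14, 0.00029) and *Lum* (2.02, 0.000492). *Dcn* and *Pdgfra*, named after their values were seen, did not pass (log2 fold changes 0.57 and 0.13). *Col3a1* was the most abundant, at 107790 ± 29842 (SD, n = 6) and 24785 ± 6714 (SD, n = 7). The summed level of the list was 192055 in rat 70, 105230 in rat 71, 216826 in rat 75, 220582 in rat 80, 107403 in rat 84 and 176443 in rat 86, against 18702 to 54383 at 10 weeks. Rats 75 and 80, with the highest sums, had the lowest *Top2a* values of the young rats, and rat 84, with the next to lowest sum, had nearly the highest *Top2a*. The other rats did not follow this order: rat 71, with the lowest sum, had 714 normalized counts of *Top2a*, below the median of 896.5, and rat 86, with the highest *Top2a* at 1322, had a sum of 176443. Outside WOS, rat 81 had the highest sum and also the highest *Top2a*. The part of fibroblasts in the differences of the members was not tested.

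Of 5 mast cell markers, *Cpa3*, *Cma1*, *Tpsb2* and *Ms4a2* were higher within WOS and *Kit* was higher outside (log2 fold change −0.71, limma adjusted p 0.0343). Those 4 were named after their values were seen, and *Cpa3* had the largest log2 fold change, 3.86 (limma adjusted p 0.000492). *Kit*, which luminal progenitors also express, was the most abundant, and the list summed to 1811 to 2833 per rat at 6 weeks and 1500 to 3775 at 10 weeks. Of 3 measured adipocyte markers (of 4 listed), *Adipoq* (log2 fold change 2.41, limma adjusted p 0.013) and *Plin1* (1.94, limma adjusted p 0.0188) were higher within WOS. *Cidec* was the most abundant, and the sums were low, at 66 to 134 and 28 to 78. In limma none of 5 macrophage markers passed the test (most abundant *Csf1r*, sums 338 to 744 and 360 to 721). None of 3 measured endothelial markers passed either (of 4 listed, most abundant *Cdh5*, sums 3210 to 5580 and 2955 to 5030). At an unadjusted p under 0.05, 1 macrophage marker was higher outside WOS and 1 endothelial marker was higher within WOS. No marker of the lists given here was at 0 in all rats. The part of these cells in the results was not tested.

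The rats were also split into sets by what varied within ages. On the largest component of the within-age variation (28.3% of it), which cannot follow age by construction, a gap of 27.3 separated 8 rats (4 of each age) from 5 rats, namely 75 and 80 of 6 weeks and 78, 81 and 83 of 10 weeks. Within the larger set the log2 fold changes were 3.63 for *Top2a*, 2.64 for *Ncaph*, 2.34 for *Ncapg* and 1.88 for *Smc2*. Within the smaller set they were 2.06, 1.28, 1.63 and 0.95. The condensin II genes *Ncapd3* and *Ncapg2* had 1.32 and 0.70 in the larger set and 0.55 and 0.58 in the smaller set. All 6 members called higher within WOS had log2 fold changes above 0 in both sets, with smaller values in the smaller set. They were called over these same rats, so their direction in the sets is no separate result. That set holds rats 78, 80, 75 and 81, which lacked 16, 15, 10 and 7 low numbers, and rat 83, which lacked none, while rat 74 of the larger set lacked 8. None of the members passed limma's test within the smaller set of 2 and 3 rats and neither did any of the 14790 genes. At an unadjusted p under 0.05, 3 of 10 members and 1169 of all genes were higher within WOS there. What sets these rats apart was not tested.

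Since 6 members were higher within WOS, the sequences before the starts of the members were searched for short motifs known from promoters of cell cycle genes. RefSeq promoters of the GRCr8 build (250 bases before to 50 after the start) were matched by symbol for 10 of 10 members. A single start per gene was searched, so other starts of a gene are not covered. The counts were made on an older build, so the sequences are shown only as those of the named genes. The motifs, sought on both strands, were the CCAAT box (letters CCAAT), found in 37.7% of 27457 rat promoters, the CHR element (letters TTTGAA), found in 18.1%, and an E2F motif, spelled TTTGGCGC or TTTCGCGC or TTTCCCGC and found in 1.82%. A CCAAT box was in 6 of the 10 members and a CHR element in 5, and no E2F spelling was in any. The 5 with a CHR element were *Smc2*, *Smc4*, *Ncapd2*, *Ncapg* and *Top2a*, of which *Smc4* and *Ncapd2* did not pass the test between ages. *Ncaph*, *Ncapd3* and *Ncapg2* were higher within WOS and had no match for any of the motifs at the start searched.

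The promoters of both topoisomerases and of the *Ncapg* and *Ncapg2* pair are shown because these were the pairs set for comparison whose ratio did not overlap between ages. *Top2a* (chr10:84473044-84473343, minus strand) holds 4 CCAAT boxes (0.754% of rat promoters hold 4 or more), starting 239, 201, 161 and 57 bases before the start, and a CHR element starting 22 bases before it. *Top2b* (chr15:11542415-11542714, minus strand) holds 2 CCAAT boxes and no CHR element. *Ncapg* (chr14:69645396-69645695, minus strand) holds 3 CCAAT boxes and a CHR element starting 24 bases before the start. *Ncapg2* (chr6:143485694-143485993, plus strand) holds none of these motifs. Each is written in the direction of its gene, in lower case, with matches in capitals, and a match on the other strand reads as its reverse complement. A match describes letters only and is not a measured binding site.
Top2a: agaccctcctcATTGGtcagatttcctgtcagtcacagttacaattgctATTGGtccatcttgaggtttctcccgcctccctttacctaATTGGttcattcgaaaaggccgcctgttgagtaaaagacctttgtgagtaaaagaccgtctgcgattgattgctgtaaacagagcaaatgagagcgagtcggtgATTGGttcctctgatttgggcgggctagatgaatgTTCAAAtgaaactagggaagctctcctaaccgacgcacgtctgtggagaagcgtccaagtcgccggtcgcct
Top2b: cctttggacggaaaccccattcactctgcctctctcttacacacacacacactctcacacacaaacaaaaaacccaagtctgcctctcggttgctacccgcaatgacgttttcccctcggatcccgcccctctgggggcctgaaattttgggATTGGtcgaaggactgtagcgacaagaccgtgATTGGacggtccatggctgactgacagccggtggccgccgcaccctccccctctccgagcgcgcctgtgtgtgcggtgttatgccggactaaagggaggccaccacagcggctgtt
Ncapg: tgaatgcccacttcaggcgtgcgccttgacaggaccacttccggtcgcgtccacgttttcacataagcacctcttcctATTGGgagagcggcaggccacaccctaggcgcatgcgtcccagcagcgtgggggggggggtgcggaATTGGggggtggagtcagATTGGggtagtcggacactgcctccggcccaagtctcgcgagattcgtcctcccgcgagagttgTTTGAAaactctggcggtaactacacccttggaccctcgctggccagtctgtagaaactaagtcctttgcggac
Ncapg2: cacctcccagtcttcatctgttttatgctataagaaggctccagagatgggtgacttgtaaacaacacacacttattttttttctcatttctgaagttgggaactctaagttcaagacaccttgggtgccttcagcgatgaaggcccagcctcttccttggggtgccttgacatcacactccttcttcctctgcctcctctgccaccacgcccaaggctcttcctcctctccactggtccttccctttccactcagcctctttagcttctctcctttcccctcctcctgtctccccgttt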

How the data were processed

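Bulk RNA-seq values of 13 rats were analysed. The authors counted reads with RSEM 1.2.22, scaled each library and deposited whole numbers, so the unit is a score (scaled, rounded counts) and not raw counts. The submitters' processing notes name rn5, and the annotation is not given in the sources used here. Next to the per-rat values, the authors deposited columns of an edgeR comparison: a fold change and a mean abundance in log2, a likelihood ratio score, and a p-value with an FDR. The authors also gave −log10 of that p-value, plain and signed. None of these columns was used, and edgeR and DESeq2, named for the authors' work, were not run here.

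Ages were compared in limma 3.58.1 (R 4.3.3) after adding 1 to each normalized count and taking log2, which understates the change of low genes. A gene needed a mean of 1 or more, and all 14790 genes, the 10 members included, met this. No covariate was used. Tests were two-sided, with Benjamini-Hochberg adjustment over all genes and a threshold of 0.05, and intervals are unadjusted. Ratios were tested by exact permutation in scipy 1.17.1 (Python 3.11.15, numpy 2.4.6, pandas 2.3.3) and drawn with matplotlib 3.10.9. The code was tested on simulated data.

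The members and gene lists were chosen with earlier results of these data known. By rule, the text names all members, the 4 called genes with the largest absolute log2 fold change and the most abundant uncalled gene of each list, the 5 genes most like each topoisomerase, and the most abundant gene of each marker list with its called genes when 3 or fewer. The result of 1 marker list is not reported here. Alternatives changed the scaling (median-ratio, library size, upper quartile), the pseudocount (0.1), the filter (none, or 10 in every rat), the weights, the prior (limma-trend), the covariate (largest residual component) or the rats (each left out, each set alone). Leaving out rats 78 and 80, and the *Smc2* to *Smc4* ratio, were added after the data were seen.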

Additional observations from a re-analysis of the deposited data

Results flagged for a closer look

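In 30 groups of values (10 genes and 5 ratios at each age), 5 had a highest rat whose gap to the nearest other rat took up more of the range than Dixon's 95% critical value allows. Chance does so in about 1 of 20 groups, and the ratios share genes with the single values, so these are not 5 separate cases.

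Of the 5, 4 were rat 81 outside WOS. It had 282 normalized counts of *Top2a*, against 127 in the nearest older rat, and 123 of *Ncaph*, against 46. Its *Top2a* over *Top2b* ratio was 0.180, against 0.0769, and its *Ncaph* over *Ncaph2* ratio was 0.479, against 0.184. Without rat 81 the log2 fold change was 3.30 for *Top2a* and 2.41 for *Ncaph*, against 3.05 and 2.14 with it (limma adjusted p 8.07e-05 and 0.000257), within leave-one-out ranges of 8.07e-05 to 0.00126 and 0.000257 to 0.00809 for the adjusted p. The remaining case was the *Ncapd2* over *Ncapd3* ratio of rat 75 within WOS, at 4.02 against 2.21 in the nearest young rat. Without rat 75 the log2 difference between ages in this ratio was −0.83 (exact p 0.00253), against −0.64 with it.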

How the results depend on the processing

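Over scalings, pseudocount, filters, limma-trend and the residual component, 6 members were higher within WOS each time. The count was 7 with sample weights, in the larger rat set and without rats 78 and 80 (a choice made after seeing the data), and 6 to 7 when each rat was left out. The gene added was *Ncapd2*, with log2 fold changes of 0.55, 0.64 and 0.55. In the smaller set (2 and 3 rats) it was 0, as limma called 0 genes there in either direction; at an unadjusted p under 0.05 it had 1169 and 824 genes and 3 members. Fewer rats went into that fit.

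Genes higher within WOS numbered 1288, but 3009 with weights, 1987 in the larger set and 803 to 1461 with a rat left out (803 without rat 70, 858 without 84). Genes higher outside numbered 1093, but 2638 with weights, 1651 with the residual component and 608 to 1219 with a rat left out (608 without rat 70, 630 without 84, 696 without 72, 694 without 74, 671 without 87). The cause was not tested.

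Directions turned only for members that did not pass: in the smaller set *Smc4* (−0.0019) and *Ncaph2* (−0.11), in the larger set *Top2b* (−0.038), and *Top2b* with a rat left out (−0.010 to 0.091, below 0 without rat 86, 81 or 83). The log2 difference in the *Top2a* to *Top2b* ratio was 2.00 in the smaller set, against 3.02. That in the *Ncapd2* to *Ncapd3* ratio was −0.51 without rats 78 and 80 (exact p 0.0823) and −0.83 to −0.53 with a rat left out, past 0.05 only without rat 86 (exact p 0.0530). No paired analysis was possible because each rat has a number of its own. Whole-number steps of about 2 in rats 78 and 80 limit low values such as those of *Ncapg* and *Ncaph*.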
